A study of Mus musculus with 4 samples.

Results

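Sox12 is a transcription factor of the SoxC group, and the libraries described here came from naive CD4 T cells transduced with a vector that carries Sox12 or with a mock vector. They are 2 of the 4 libraries of the series, 1 per vector, and were taken by the labels: wild-type C57BL6 mice, CD4 T cells, mock vector or Sox12 vector. Both groups share the strain, the genotype and the transduction. The sources used here do not give the vector backbone, the stimulation of the cells, the time between transduction and harvest, any selection of transduced cells or the number of mice pooled. As far as the title of the series states a purpose, it is to describe regulatory T cells (Treg) that Sox12 induces.

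Every one of the 23259 named genes of the vector table was read, and in 10822 the 2 libraries averaged 1 FPKM or more (fragments per kilobase of transcript, scaled to library size). The change of a gene is log2(FPKM + 1) with the Sox12 vector minus the same with the mock vector. A gene is called at least 2 times higher or lower when that change is at least 1 in size, which understates the change of genes with low values. A ratio is of the FPKM themselves, and paired values give the mock vector first. With 1 library per vector there was no replicate and no test, so every difference below describes these 2 libraries. By this rule 525 genes (4.85% of those past the filter) were at least 2 times higher with the Sox12 vector and 207 (1.91%) at least 2 times lower. At any size, 48.9% of the genes were higher and 51.1% lower, with a median change of -0.01. The counts in either direction follow the pseudocount, with 682 and 335 genes at a pseudocount of 0.1 and 222 and 94 at a pseudocount of 5.

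As background, SoxC proteins (Sox4, Sox11 and Sox12) bind DNA through an HMG box that recognises short sequences built around ACAAAG or ACAATG. They are best known from embryonic neurons and other progenitors, where they act on genes of the cytoskeleton, adhesion and differentiation. Foxp3 is the lineage factor of Treg, the CD4 T cells that restrain immune responses, and naive CD4 T cells can acquire it in the periphery. Retroviral transduction of naive T cells is usually done on activated, dividing cells.

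Part of the low values come in steps of a single fragment, and the depth was estimated from them. Among genes with a single transcript, 74 of 811 searched with the mock vector and 76 of 823 with Sox12 lay at the step used. Other values lie far below a single fragment, such as Hba-a2 at 0.000217 FPKM with the mock vector, so the fragment numbers below are approximate. At 1 FPKM a transcript of 1 kb rested on about 42.9 fragments with the mock vector and 45.1 fragments with Sox12. Intervals given below as counting intervals are exact binomial 95% intervals on fragments estimated with the median transcript length of a later annotation, and they cover counting error only. The 93 small RNA rows past the filter are too short for this depth. Of the 25 small RNA rows at least 2 times higher, 21 were listed at 0 with the mock vector, and of the 29 lower, 16 were listed at 0 with the Sox12 vector. They are left aside in what follows.

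The vector factor and its relatives come before all other genes. Sox12 had 1.56 FPKM with the mock vector against 829 FPKM with Sox12, a ratio of 533. Vector-borne and endogenous Sox12 transcripts are counted together in this value. Its close relative Sox4 had 1.76 and 1.25 FPKM, and Sox11 was listed at 0 in both libraries. Outside the SoxC group, Sox5 had 0.202 and 1.47 FPKM and lay just under the filter. The other Sox genes in the list (Sox2, Sox6, Sox8, Sox9, Sox10, Sox13, Sox18 and Sox21) were at or below 0.168 FPKM in either library.

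Foxp3 had 20.9 FPKM with the mock vector against 127 FPKM with Sox12, a ratio of 6.08 with a counting interval of 5.83 to 6.34. It ranked 71 from the highest among the 10822 genes, small RNAs included. For comparison within the series, but in a table normalized separately, splenic Treg of the other experiment had 88.2 FPKM untreated and 84.9 FPKM after dextran sulfate sodium (DSS).

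Upstream sequences are shown for Foxp3, the gene the series title turns on, and for Tubb3 and Snn, which are among the genes farthest above the mock vector and hold a SoxC-type core near their start, beside Tmem98, which is farther above and holds none. Each run gives the 250 bases before a RefSeq start site of build GRCm38.p6, not the mm9 build of the files, from 5′ to 3′ on the strand of the gene. Capitals mark ACAAAG or ACAATG on either strand, the latter reading CATTGT when on the opposite strand.
Foxp3, chrX:7579426-7579675, plus strand: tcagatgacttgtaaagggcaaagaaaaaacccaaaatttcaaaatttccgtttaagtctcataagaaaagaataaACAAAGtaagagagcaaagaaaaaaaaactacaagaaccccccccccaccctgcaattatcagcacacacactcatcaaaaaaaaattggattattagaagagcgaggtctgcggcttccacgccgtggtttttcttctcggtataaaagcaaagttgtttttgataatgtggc
Tubb3, chr8:123411303-123411552, plus strand: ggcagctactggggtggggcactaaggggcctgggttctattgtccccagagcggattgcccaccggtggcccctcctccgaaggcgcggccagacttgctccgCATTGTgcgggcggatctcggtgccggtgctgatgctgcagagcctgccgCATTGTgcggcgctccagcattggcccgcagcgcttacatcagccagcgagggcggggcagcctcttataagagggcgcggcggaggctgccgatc
Snn, chr16:11066048-11066297, plus strand: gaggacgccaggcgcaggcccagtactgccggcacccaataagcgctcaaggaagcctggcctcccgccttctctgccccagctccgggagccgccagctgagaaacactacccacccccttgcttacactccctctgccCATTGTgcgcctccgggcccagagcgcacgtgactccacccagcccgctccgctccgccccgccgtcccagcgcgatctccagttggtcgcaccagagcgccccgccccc
Tmem98, chr11:80810116-80810365, plus strand: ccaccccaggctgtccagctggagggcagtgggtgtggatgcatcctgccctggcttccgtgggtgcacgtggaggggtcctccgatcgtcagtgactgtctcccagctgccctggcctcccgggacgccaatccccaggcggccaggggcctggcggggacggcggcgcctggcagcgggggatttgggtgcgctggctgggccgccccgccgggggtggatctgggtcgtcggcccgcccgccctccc

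In the Foxp3 window 1 ACAAAG began 174 bases before the start. RefSeq lists 2 Foxp3 start sites, and the window of the other, at chrX:7580233-7580482, held neither core. The Tubb3 window held ACAATG at 146 and 96 bases before the start, both on the opposite strand, and the Snn window held it at 110 bases. Tubb3 and Snn were picked because they hold a core. The 25 highest named genes gave 23 windows (18 genes matched), of which 5 (21.7%) held one, all ACAATG. The 25 lowest also gave 23 windows (18 genes matched), of which 4 (17.4%) did, all ACAAAG. These short cores are common. Of all 32851 promoter windows of this length in the RefSeq table, 25.2% held at least 1 of them, and of the 10950 windows of genes past the filter 17.3%. For the genes at least 2 times higher the share was 24.1% (126 of 523 windows, 385 of 525 genes matched), and for those at least 2 times lower 17.0% (28 of 165 windows, 135 of 207 genes matched). ACAAAG alone was in 17.8% of the windows of the higher genes, 12.7% of those of the lower genes and 12.2% over all genes past the filter. For ACAATG the shares were 7.46%, 4.24% and 5.95% in the same order. ACAAAG overlaps the TCF and LEF motif in its last letters, CAAAG, and both cores are rich in A. The sets also differed in base composition, whose part in these shares was not tested. The median GC content was 58.8% in the windows of the higher genes, 56.0% in those of the lower genes and 60.0% over all genes past the filter. A match is a description of letters, not a site of binding.

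The genes farthest above the mock vector were, after Sox12, mostly genes near silence in the mock vector library. Of the 525 higher genes, 167 had less than 1 FPKM with the mock vector. Among genes that averaged 5 FPKM or more, Cd24a, a lipid-anchored surface glycoprotein of immature lymphocytes and neural progenitors, had 1.20 FPKM with the mock vector against 301 FPKM with Sox12. Nrep, listed under its older name D0H4S114, had 1.39 and 141 FPKM. The transmembrane protein gene Tmem98 had 0.0728 and 48.7 FPKM, which rests on about 5 fragments in the mock vector library, so its ratio of 668 has a counting interval of 292 to 2103. Low mock values leave such intervals wide.

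A group of these genes shapes actin, microtubules and cell contacts. Dbn1, the actin-binding drebrin, had 0.192 and 37.9 FPKM, and Fscn1, the actin-bundling fascin, had 1.12 and 30.8 FPKM. Tubb3, the neuronal beta-tubulin, had 0.425 and 22.4 FPKM, and the actin-associated LIM protein Pdlim4 0.243 and 10.04 FPKM. Of contact proteins, Jup (plakoglobin) had 0.194 and 10.8 FPKM and Gja1 (the gap junction protein connexin 43) 0.358 and 14.1 FPKM. Plxnb1, a plexin that receives semaphorin 4D, had 0.268 and 9.92 FPKM. Gpc2, a heparan sulfate proteoglycan of developing neurons, had 0.234 and 11.3 FPKM, and the matrix protein fibronectin (Fn1) 0.553 and 11.6 FPKM. In each of these 9 genes the value with the mock vector was at or below 1.12 FPKM.

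Further genes of the 25 came from growth control, signalling and lymphocyte function. Snn, which encodes stannin, had 1.12 and 36.4 FPKM, and Mex3a, an RNA-binding protein, 1.15 and 41.0 FPKM. The pseudokinase gene Trib2 had 1.62 and 26.4 FPKM, and Pik3r3, a regulatory subunit of phosphoinositide 3-kinase, 0.162 and 9.89 FPKM. Mmp11, a matrix metalloproteinase, had 0.901 and 20.2 FPKM. The neuronal membrane genes Nsg1 and Ctxn1 had 0.805 against 18.4 and 1.76 against 20.8 FPKM. These genes were again low with the mock vector. Ikzf3 differs from them in its starting level. It encodes Aiolos, an Ikaros family factor of lymphocytes, and had 4.97 and 54.2 FPKM, a ratio of 10.9 with a counting interval of 10.1 to 11.8. Gzma, a granzyme, and the imprinted genes H19, Igf2 and Cdkn1c complete the group and are described with their lists.

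**Figure D1:**
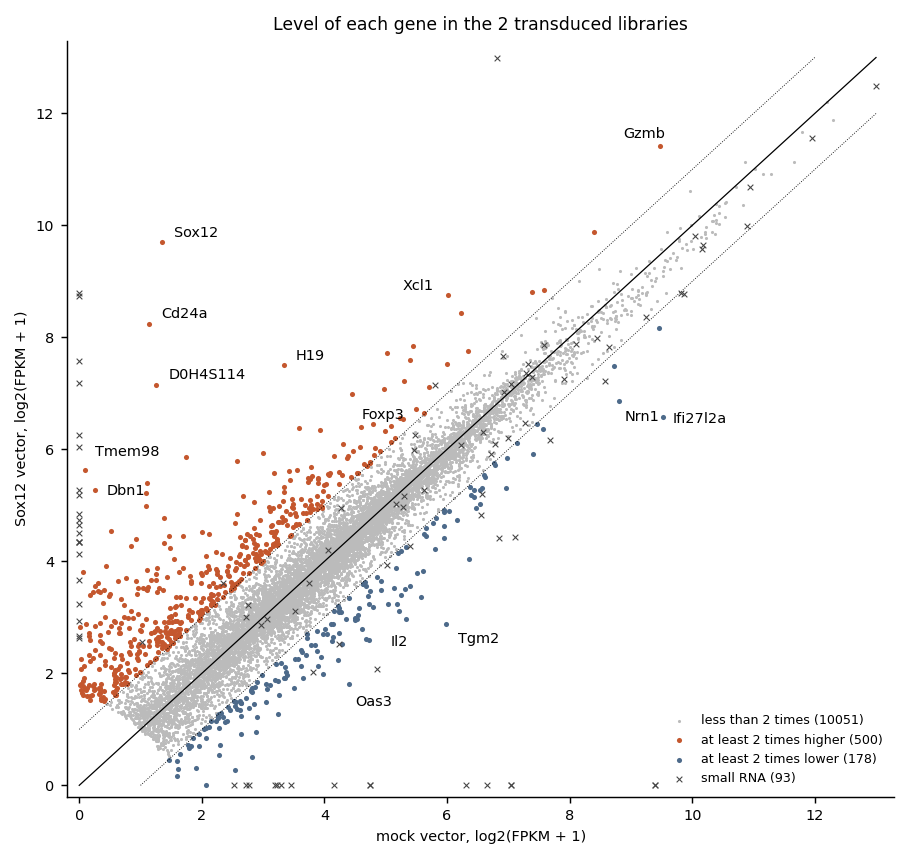
Level of each of the 10822 genes past the filter with the mock vector (x axis) and the Sox12 vector (y axis), both as log2(FPKM + 1). The solid line marks equal levels and the dotted lines a change of 1. Sox12, Cd24a and D0H4S114 (Nrep) stand far above the line, Foxp3 lies among the higher genes at 20.9 and 127 FPKM, and small RNAs (crosses) line both axes where they are listed at 0 in 1 library.

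**Figure D2:**
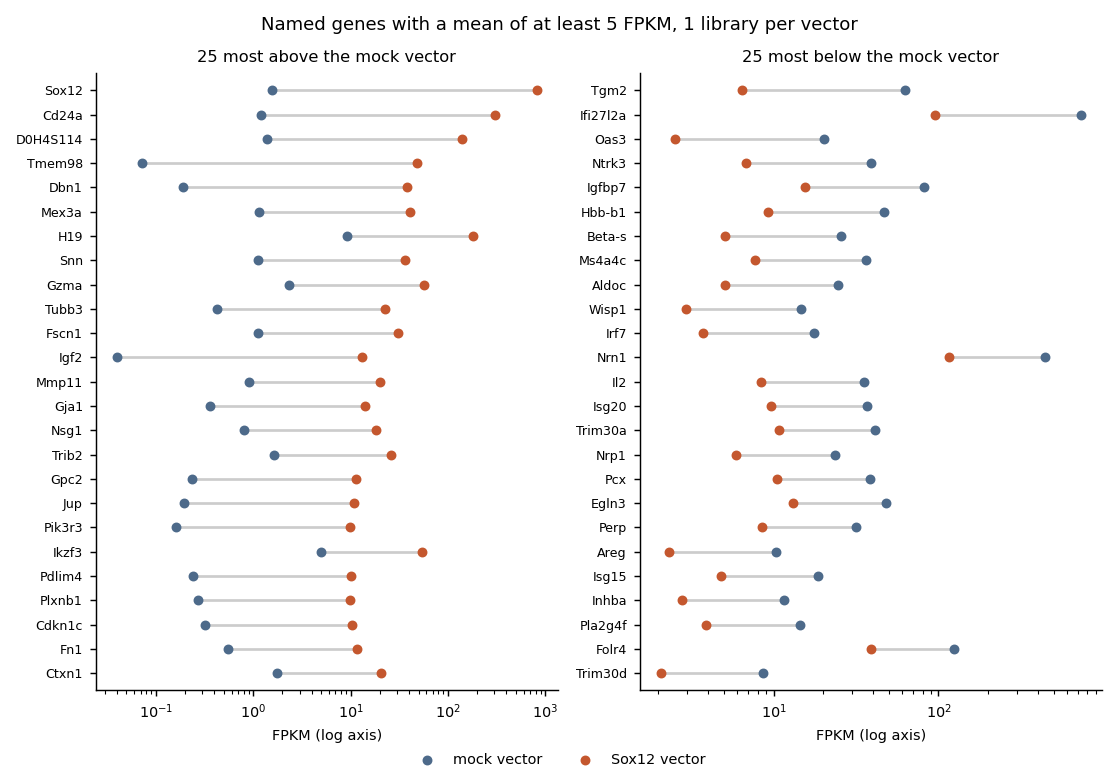
FPKM on a log axis in the mock vector library (blue) and the Sox12 vector library (orange) for the 25 named genes farthest apart in each direction. On the left most mock vector values lie below 2 FPKM. On the right the genes start from 8.59 FPKM or more with the mock vector and remain detected with the Sox12 vector.

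Genes at least 2 times lower were fewer than those at least 2 times higher, and the filter and the size rule together require them to start above 1 FPKM. Tgm2, which encodes tissue transglutaminase, had 62.2 FPKM with the mock vector against 6.38 FPKM with Sox12, a ratio of 0.103 (counting interval 0.0961 to 0.109). Nrn1, which encodes neuritin, had 445 and 115 FPKM, and Ntrk3, the receptor of neurotrophin 3, had 39.0 and 6.82 FPKM. Both are best known from neurons, so the higher and the lower groups each hold neuronal genes. Of secreted growth regulators, the insulin-like growth factor binder Igfbp7 had 81.2 and 15.4 FPKM and Wisp1 (now Ccn4) 14.7 and 2.96 FPKM. The activin A subunit Inhba had 11.6 and 2.77 FPKM and the epidermal growth factor receptor ligand Areg 10.4 and 2.32 FPKM.

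The same group of 25 held cytokine, metabolic and membrane genes. Il2, the growth factor of T cells, had 35.1 and 8.40 FPKM. Pcx, the pyruvate carboxylase, had 38.6 and 10.4 FPKM, Aldoc, an aldolase, 24.6 and 5.10 FPKM, and Egln3, an oxygen-sensing prolyl hydroxylase, 48.0 and 13.2 FPKM. Perp, a membrane protein induced by p53, had 31.6 and 8.49 FPKM, Ms4a4c 36.2 and 7.66 FPKM and the phospholipase Pla2g4f 14.4 and 3.90 FPKM. Another 7 of the 25 are interferon-induced genes, Ifi27l2a, Oas3, Irf7, Isg20, Isg15, Trim30a and Trim30d, of which Isg20, an exonuclease, had 37.0 and 9.57 FPKM and Trim30d 8.59 and 2.06 FPKM. Transcripts of beta-globin were lower as well, with Hbb-b1 at 46.6 and 9.27 FPKM and the near-identical Beta-s at 25.5 and 5.05 FPKM, so reads may be divided wrongly between the pair. The alpha-globin gene Hba-a1 was instead higher at 1.74 and 4.23 FPKM, below the size rule. Its near copy Hba-a2, under the filter, had 0.000217 and 1.79 FPKM, so reads of the alpha-globins may be divided wrongly too.

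Gene lists are described next by the number of members past the filter, their median change and the members past the size rule. Members named with smaller changes were chosen after their values were seen, unless they are the 3 most abundant of a list without larger changes or markers that define a cell type. In the table over all genes the median change was -0.01, the share at least 2 times higher was 4.85% and the share as much lower 1.91%, and a list near these shares is not set apart by its count. A gene near 0 in 1 library can pass the filter only through the other, so counts over members past the filter are descriptions.

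**Figure D3:**
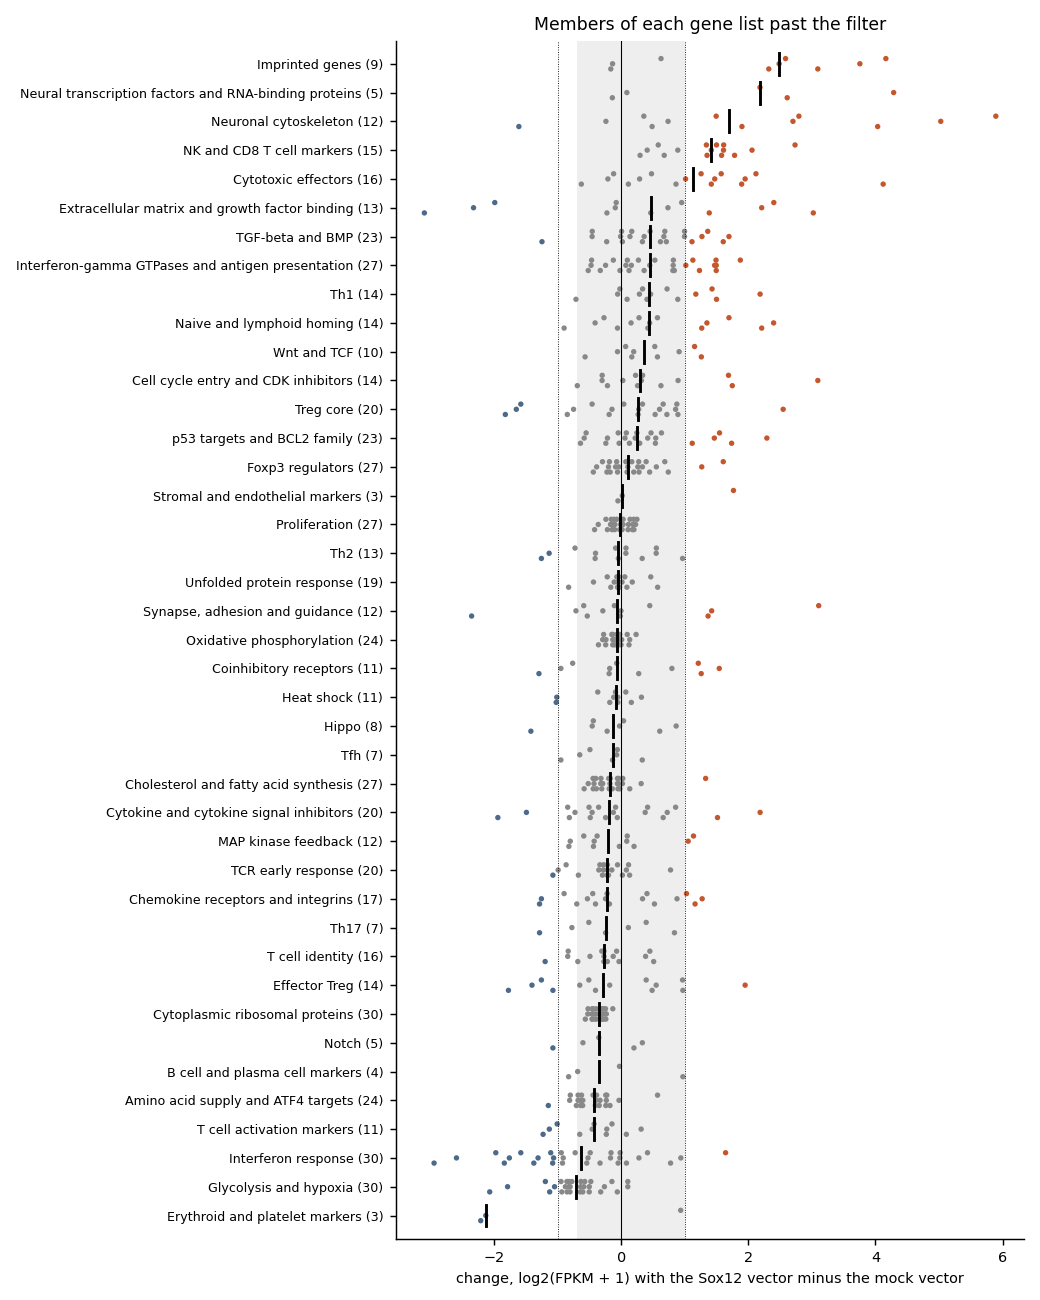
Change of every list member past the filter (points), on the log2(FPKM + 1) scale, for lists with at least 3 such members (number in brackets), ordered by their median (black bar). Orange and blue points are at least 2 times higher or lower, and the grey band spans the 5th to 95th percentile of all genes (-0.68 to 0.98). The imprinted and neural transcription factor lists lie farthest to the right, with medians of 2.48 and 2.18. These cover only the 9 and 5 members past the filter, of 21 in each list. The erythroid list (3 genes, -2.13) lies farthest to the left, followed by glycolysis and the interferon response. Its 3 genes are the near-identical Hbb-b1 and Beta-s, both lower, and the alpha-globin gene Hba-a1, which was higher.

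The Treg core list was mixed apart from Foxp3. Of its 20 members past the filter, 12 were higher and 8 lower, with a median of 0.27, and 1 passed the size rule upwards, Foxp3, against 4 with a pseudocount of 0.1. Il10, a suppressive cytokine, had 0.786 and 2.23 FPKM, Nt5e (CD73, which makes adenosine) 2.39 and 5.22 FPKM, and Fgl2, a secreted suppressor, 3.24 and 6.86 FPKM, all below the size rule at the pseudocount of 1. The Ikaros factors Ikzf2 (Helios) and Ikzf4 (Eos) had 12.0 against 18.7 and 17.7 against 21.5 FPKM. The receptor genes Il2ra, Ctla4 and Lrrc32 had 629 against 568, 177 against 155 and 32.1 against 33.0 FPKM. Other abundant surface members were further apart, with Tnfrsf18 (GITR) at 329.8 and 183 FPKM and Il2rb at 243 and 352 FPKM. At least 2 times lower were the semaphorin receptor Nrp1 (23.6 and 5.94 FPKM), Folr4 (now Izumo1r, 124 and 38.9 FPKM) and Ebi3 (54.9 and 17.7 FPKM), a subunit of interleukins 27 and 35. Itgae, at 0.347 and 0.411 FPKM, was under the filter.

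Among 27 known regulators of Foxp3 past the filter the median was 0.10, and 2 were at least 2 times higher. Smad3, which carries TGF-beta signals to Foxp3, had 4.50 and 15.7 FPKM (ratio 3.50), and Foxo1, a forkhead factor that acts on Foxp3 and on homing genes, had 14.8 and 37.0 FPKM. The methylation maintenance genes Dnmt1 and Uhrf1 had 107 against 115 and 101 against 94.7 FPKM. Tet2 and Tet3, which oxidise methylcytosine, had 10.1 against 10.7 and 13.0 against 15.9 FPKM. Ets1 had 84.3 and 141 FPKM, Runx1 7.29 and 6.34 FPKM, Stat5a 66.2 and 56.5 FPKM and Rel 50.5 and 38.3 FPKM. Apart from Smad3 and Foxo1, these factors differed by less than 2 times between the vectors.

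Effector Treg genes were mixed, with 6 of 14 members past the filter higher and a median of -0.29. Gzmb had 708 and 2735 FPKM, while Areg, Pparg (6.25 and 1.74 FPKM), the skin-homing receptor Ccr4 (94.1 and 38.8 FPKM) and Irf4 (96.7 and 45.3 FPKM), a factor of activated lymphocytes, were at least 2 times lower. Prdm1 (Blimp-1) had 1.02 and 2.95 FPKM.

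**Figure D4:**
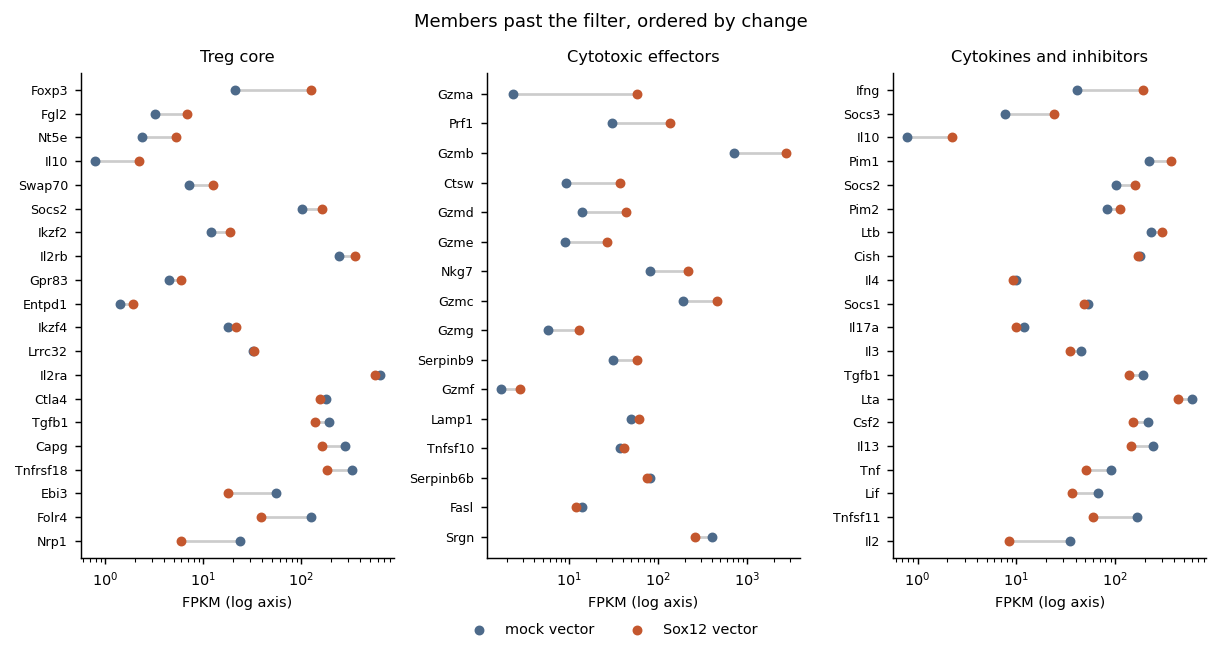
FPKM on a log axis with the mock vector (blue) and the Sox12 vector (orange) for members past the filter of the Treg core, cytotoxic effector and cytokine lists, each ordered by change. Foxp3 stands apart at the top of the Treg core, the granzymes and Prf1 lie to the right of their mock values, and Ifng and Il2 mark the ends of the cytokine list.

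Of the helper lineages, Th1 genes were mostly higher. Among 14 members past the filter 11 were higher and 4 at least 2 times higher, with a median of 0.43. Tbx21, the Th1 lineage factor T-bet, had 5.07 and 16.2 FPKM (ratio 3.19), and Ifng, its main cytokine target, had 41.3 and 191 FPKM (ratio 4.63, counting interval 4.42 to 4.85). The chemokines Ccl3 and Ccl5 had 166 against 449 and 12.0 against 28.3 FPKM, and Ccl4 had 119 and 197 FPKM. Eomes, the T-box relative of Tbx21, had 17.4 and 33.0 FPKM. Stat4, which signals from the interleukin 12 receptor, was lower at 57.9 and 34.9 FPKM, and the receptor chains Il12rb1 and Il12rb2 had 26.7 against 34.0 and 18.8 against 23.1 FPKM.

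Th2, Th17 and Tfh genes had medians of -0.05, -0.25 and -0.14, and none of their members past the filter was at least 2 times higher. With a pseudocount of 0.1 the Th2 and Th17 lists each held 1 such gene, the interleukin 33 receptor Il1rl1 at 0.432 and 1.79 FPKM and the aryl hydrocarbon receptor Ahr at 1.71 and 3.84 FPKM. The Th2 factor Gata3 had 23.0 and 34.2 FPKM, but the Th2 cytokines Il5, Il13 and Il4 had 17.9 against 7.62, 241 against 145 and 10.02 against 9.36 FPKM, of which only Il5 passed the size rule, as did the receptor Ccr4. For Th17, the cytokine gene Il17a had 11.9 and 9.87 FPKM and Ccr6, the 1 member at least 2 times lower, 14.8 and 5.48 FPKM. Il17f, Il22, Il23r, Ccl20, Il21 and Il1r1 were under the filter. Of 7 Tfh genes past it 6 were lower, among them Bcl6, the Tfh factor, at 2.86 and 1.74 FPKM and Btla at 35.03 and 17.6 FPKM. Pdcd1 and Icos had 38.6 against 36.7 and 72.3 against 45.6 FPKM.

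The cytokine list joins these lineages. Of 20 members past the filter 13 were lower, with a median of -0.19. Il2 and Tnfsf11, which encodes RANK ligand (169 and 59.3 FPKM), were at least 2 times lower. Tnf had 91.1 and 51.3 FPKM, Lta 604 and 430.2 FPKM, Lif 66.8 and 36.8 FPKM and Csf2 215 and 151 FPKM, each lower by less than 2 times. Higher were Ifng and Socs3, an inhibitor of STAT3 signals, at 7.72 and 23.9 FPKM. The STAT5 targets Cish, Socs2 and Pim1 had 180.3 against 173, 101 against 161 and 223 against 368 FPKM. Interferon-gamma was thus the 1 secreted cytokine of the list past the size rule in the upward direction.

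Cytotoxic genes were mostly higher with the Sox12 vector. Of 16 effectors past the filter 13 were higher and 9 at least 2 times higher, with a median of 1.13 and none at least 2 times lower. Gzmb, which cleaves caspases in target cells, had 708 FPKM with the mock vector against 2735 FPKM with Sox12 and was among the most abundant transcripts of either library. Gzma had 2.35 and 57.2 FPKM (ratio 24.4), and the pore-forming perforin Prf1 30.3 and 135 FPKM (ratio 4.45). Of the granzymes encoded beside Gzmb, Gzmc had 191 and 458 FPKM, Gzmd 13.8 and 43.1 FPKM, Gzme 8.95 and 26.6 FPKM and Gzmg 5.83 and 12.8 FPKM, and close copies among them can share reads. Nkg7, a granule membrane protein, had 80.00 and 215 FPKM and Ctsw (cathepsin W) 9.14 and 36.7 FPKM. The death ligands Fasl and Tnfsf10 had 14.1 against 12.0 and 37.6 against 40.7 FPKM, and the granule proteoglycan Srgn was lower at 399.5 and 258 FPKM. Granule enzymes and perforin were thus higher, while the death ligands of the surface were near equal. Gzmk was listed at 0 with the mock vector and had 0.843 FPKM with the Sox12 vector.

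Markers of NK and CD8 T cells were higher as well. All 15 members past the filter were higher and 10 passed the size rule, with a median of 1.42. Their FPKM summed over the whole list were 252 with the mock vector and 904 with the Sox12 vector. The chemokine Xcl1 had 63.7 and 429.7 FPKM (ratio 6.74). The lectin receptors Klrk1 (NKG2D), Klrd1 (CD94), Klre1, Klra7 and Klrb1c had 6.35 against 21.4, 11.3 against 33.6, 2.44 against 7.78, 6.10 against 20.2 and 0.923 against 3.87 FPKM. Adaptors that pair with such receptors were also higher, with 18.8 and 67.1 FPKM for Fcer1g and 2.33 and 9.18 FPKM for Tyrobp. Cd8a had 0.580 and 5.58 FPKM and Cd8b1 4.80 and 7.68 FPKM, far below Cd4 at 261 and 185 FPKM, and the NK receptor Ncr1 had 1.19 and 2.49 FPKM. In bulk RNA, more cells of a type and more RNA of a gene per cell cannot be told apart, and the part of other cytotoxic cells in these values was not tested.

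The markers that define T cells were high in both libraries, and Cd4 among them. Cd3e had 259 and 214 FPKM, Cd3g 288 and 280.5 FPKM, Cd28 52.0 and 71.4 FPKM, Lck 229 and 185 FPKM and Bcl11b 16.8 and 22.2 FPKM. Of the 16 T cell identity genes 13 were lower with the Sox12 vector, with a median of -0.27. Cd5, a receptor that dampens T cell receptor signals, was the 1 member at least 2 times lower, at 189 and 81.7 FPKM. Cd2, Trat1 and Cd6 had 645 against 361, 79.8 against 44.1 and 138 against 85.6 FPKM. Il2ra and Tfrc, which activation induces, had 629 against 568 and 259.5 against 189 FPKM. Of the 11 activation genes 9 were lower, and Tnfrsf4 (OX40, 423 and 179.6 FPKM), Cd40lg (125 and 56.7 FPKM) and Cd44 (108 and 53.03 FPKM) at least 2 times. Cd69 had 46.0 and 57.4 FPKM.

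Genes of naive cells and of lymphoid homing were more often higher, in 10 of 14 cases, with 5 at least 2 times higher and a median of 0.43. Klf2, a factor that keeps T cells circulating, had 8.06 and 46.7 FPKM (ratio 5.80), and its target S1pr1, the receptor for egress from lymph nodes, 15.3 and 40.5 FPKM. Ccr7, which brings T cells into lymph nodes, was instead lower at 166 and 88.5 FPKM. Id3 had 12.3 and 41.9 FPKM, Igfbp4 74.3 and 347 FPKM and Foxo1 14.8 and 37.0 FPKM. Il7r, Lef1 and Tcf7 had 32.3 against 36.1, 48.1 against 71.9 and 84.0 against 80.6 FPKM. S1pr1 and Ccr7, receptors of egress and entry, therefore lay on opposite sides.

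Receptors of tissue homing also split. Of 17 chemokine receptors and integrins past the filter 10 were lower, with a median of -0.22 (0.025 without the filter). Among the 3 at least 2 times higher, Ccr2, a receptor for inflammatory chemokines, had 4.58 and 10.4 FPKM, and the integrin chain Itgb3 9.42 and 24.2 FPKM. Ccr4 and Ccr6 were at least 2 times lower. The integrin chains Itgb1 and Itgb7 had 102 against 70.1 and 72.6 against 44.3 FPKM. Of 11 coinhibitory receptor genes 3 were at least 2 times higher, Havcr2 (TIM-3) at 6.63 and 21.2 FPKM, Cd160 at 2.12 and 6.46 FPKM and Cd244 (2B4) at 1.56 and 4.93 FPKM, and Cd200 was at least 2 times lower at 85.8 and 34.3 FPKM. Lag3 had 17.5 and 31.1 FPKM and Tigit 26.4 and 23.1 FPKM. Havcr2, Cd160 and Cd244 are shared with NK and CD8 T cells.

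Genes of the early T cell receptor response were mostly lower, by small amounts. Of 20 members past the filter 15 were lower, with a median of -0.22, and Irf4 was the 1 past the size rule. The AP-1 genes Junb and Fos had 309 against 155 and 10.7 against 5.43 FPKM, and Jun 8.10 and 14.6 FPKM. Egr1, Egr2 and Egr3 had 61.2 against 50.3, 16.1 against 12.4 and 69.4 against 43.1 FPKM, and the orphan receptor genes Nr4a1 and Nr4a3 161 against 140.1 and 89.1 against 72.4 FPKM. Of 12 feedback genes of the MAP kinase pathway 2 were at least 2 times higher, Rasa3, a GTPase-activating protein, at 17.95 and 40.7 FPKM and Spry2 at 4.66 and 10.7 FPKM, while Spry1 had 26.0 and 14.2 FPKM. Dusp4, Dusp5 and Dusp6, phosphatases of MAP kinases, had 92.4 against 70.8, 52.6 against 60.6 and 28.8 against 30.8 FPKM.

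The TGF-beta and BMP pathway differed more. Of 23 members past the filter 18 were higher and 5 at least 2 times, with a median of 0.45. The receptor Tgfbr1 had 6.55 and 15.3 FPKM, while its partner Tgfbr2 had 14.8 and 12.5 FPKM and the co-receptor Tgfbr3 was at least 2 times lower at 7.28 and 2.49 FPKM. Of the signal carriers, Smad3 is given above, Smad1 had 3.42 and 9.66 FPKM, Smad4 13.8 and 22.8 FPKM and Smad2 5.17 and 6.76 FPKM. The corepressor Tgif1 had 17.9 and 47.6 FPKM and the target Id3 12.3 and 41.9 FPKM, and the inhibitory Smad7 had 4.30 and 6.26 FPKM. The ligand Tgfb1 was lower at 191 and 138 FPKM. The ligand genes Tgfb2 and Tgfb3, both under the filter, had 0.0431 against 0.0731 and 0.184 against 0.429 FPKM. Tgfbr1 and the Smad genes named here were thus higher, and Tgfb1 lower.

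Most Wnt and Notch genes were under the filter, while some members were abundant. In the Wnt list 17 of 27 genes were under the filter. Of the 10 past it 8 were higher and 2 lower, with a median of 0.36. Ctnnbip1, an inhibitor of beta-catenin, had 1.80 and 5.72 FPKM and the ligand Wnt10b 3.81 and 9.70 FPKM, both at least 2 times higher. The pathway target Axin2 had 1.51 and 3.72 FPKM. Ctnnb1 (beta-catenin) had 69.8 and 101 FPKM. In the Notch list 13 of 18 genes were under the filter, among them the targets Hes1 (0.174 and 0.166 FPKM) and Dtx1 (0.308 and 0.141 FPKM). Of the 5 past it 3 were lower, with a median of -0.35. The 2 higher were Lfng at 67.3 and 85.0 FPKM and Mfng at 23.8 and 27.4 FPKM. The ligand Dll1, just under the filter, was higher at 0.121 and 1.84 FPKM, as was Notch3 at 0.0504 and 0.734 FPKM. Notch2 was at least 2 times lower at 39.1 and 18.04 FPKM, Notch1 had 21.4 and 16.6 FPKM and the DNA-binding partner Rbpj 106 and 69.3 FPKM. Of the 16 Hippo pathway genes 8 were under the filter, and Tead1, a DNA-binding partner of the pathway, had 5.49 and 8.87 FPKM. The pathway target Cyr61 (now Ccn1) was at least 2 times lower at 9.45 and 2.90 FPKM.

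Genes of the neuronal cytoskeleton were higher in 10 of 12 cases past the filter and past the size rule in 7, with a median of 1.70. Another 12 were under the filter, and without a filter the median was 0.36. Tubb2b and Tubb2a, beta-tubulins with close sequences, had 11.0 against 82.0 and 12.8 against 50.5 FPKM, and Tuba1a 357 and 596 FPKM. The beta-tubulin Tubb4a was lower at 3.00 and 2.38 FPKM. Stmn1, which takes microtubules apart, had 335 and 945 FPKM, and Marcksl1, an actin-binding membrane protein, 31.5 and 210.2 FPKM (ratio 6.68). Gap43, the growth cone protein, went the other way at 34.2 and 10.5 FPKM. Doublecortin (Dcx) and Dpysl4 were listed at 0 in both libraries. Under the filter, Stmn2, Mapt, Dpysl3 and Dpysl5 were higher, at 0.0255 against 0.109, 0.0173 against 0.311, 0.0122 against 0.139 and 0.0944 against 1.49 FPKM. Dclk1 and Stmn3, also under it, were lower at 1.21 against 0.512 and 0.0929 against 0.0222 FPKM. Dbn1 and Tubb3 passed the filter only through the Sox12 vector library. So the higher set was part of the neuronal cytoskeleton list and not the list as a whole.

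Other neuronal groups held fewer genes past the filter. Among synapse, adhesion and guidance genes 22 of 34 were under the filter, and of the 12 past it 3 were at least 2 times higher and Ntrk3 lower. The semaphorins Sema6d and Sema6c had 3.54 against 11.2 and 0.263 against 2.25 FPKM. Nrp2, just under the filter, had 0.172 and 1.59 FPKM, the reverse of its relative Nrp1. Of neural transcription factors and RNA-binding proteins 5 of 21 passed the filter. The other 16 were under it, 15 of them below 1 FPKM in both libraries, so the list median describes few genes. Rcor2, a corepressor, had 1.400 and 13.7 FPKM and Mex3b 2.24 and 13.7 FPKM, beside Mex3a. The neurogenic factors Neurog2 and Neurod1 were listed at 0 in both libraries, and Insm1 and Prox1 had 0.0384 against 0.337 and 0.0110 against 0.247 FPKM.

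Imprinted genes, which are expressed from the allele of a single parent and often control fetal growth, held several of the largest differences. Of 9 members past the filter 6 were at least 2 times higher, with a median of 2.48. The other 12 were under the filter, and over all 21 genes the median was 0.44. Of the 6, Igf2, Rian, Cdkn1c and Dlk1 were below 1 FPKM with the mock vector and passed the filter only through the Sox12 vector library. H19, a long non-coding RNA, had 9.10 and 179.9 FPKM, and Igf2, the growth factor encoded beside it, 0.0395 and 13.0 FPKM. The mock vector value of Igf2 rests on about 6 fragments, which gives its ratio a counting interval of 158 to 942. Cdkn1c (p57), an inhibitor of cyclin-dependent kinases, had 0.318 and 10.2 FPKM, and Plagl1, a zinc finger factor that restrains proliferation, 1.26 and 11.7 FPKM. Dlk1 and Rian, of a shared imprinted cluster, had 0.435 against 6.17 and 0.199 against 6.19 FPKM, and Meg3 of that cluster had 0.0887 and 0.475 FPKM. Gnas, Impact and Igf2r had 613 against 547, 4.73 against 4.21 and 24.97 against 39.1 FPKM, and Peg3, Ndn and Snrpn were at or below 0.53 FPKM with either vector.

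Secreted matrix and growth factor binding genes differed in both directions. Of 13 past the filter 4 were at least 2 times higher and 3 as much lower, and 14 were under the filter. Spp1 (osteopontin) had 42.5 and 229 FPKM, Igfbp4 74.3 and 347 FPKM, Fn1 0.553 and 11.6 FPKM and the membrane protease Mmp14 0.262 and 2.30 FPKM. Tgm2, Igfbp7 and Wisp1 were the lower ones. Fibrillar collagen genes (Col1a1, Col1a2, Col3a1) were at or below 0.24 FPKM, so Fn1 was not accompanied by the collagens of connective tissue.

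Genes induced by interferon divided into opposite groups. In the interferon response list, made of antiviral genes that type I interferon induces, 24 of 30 members past the filter were lower and 11 at least 2 times lower, with a median of -0.63. Ifi27l2a had 736 FPKM with the mock vector against 94.7 FPKM with Sox12. Irf7, the factor that amplifies the response, had 17.6 and 3.73 FPKM, Isg15, a ubiquitin-like modifier, 18.6 and 4.77 FPKM, and the RNA sensors Ifih1 and Dhx58 12.1 against 5.19 and 12.0 against 4.004 FPKM. Of the oligoadenylate synthetases, Oas3 had 20.2 and 2.52 FPKM and Oas1a 2.73 and 0.245 FPKM. Also at least 2 times lower were Trim30a (41.3 and 10.8 FPKM), Xaf1 (7.62 and 2.48 FPKM), Bst2 (97.5 and 44.6 FPKM) and Ifit3 (3.33 and 1.07 FPKM). Irf9, which carries the signal to these genes, had 21.2 and 20.5 FPKM. Ly6c1, a surface antigen, was the 1 member at least 2 times higher, at 10.1 and 33.5 FPKM, and Usp18, which dampens the response, had 7.55 and 13.6 FPKM.

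In the list of interferon-gamma GTPases and antigen presentation 20 of 27 members past the filter were higher and 8 at least 2 times higher, with none at least 2 times lower and a median of 0.45. Irf1, the factor that interferon-gamma induces, had 15.7 and 46.0 FPKM. Guanylate-binding proteins and related GTPases defend cells against intracellular pathogens. Gbp2 had 22.9 and 65.2 FPKM, Gbp4 16.0 and 47.0 FPKM, Gbp8 6.74 and 17.2 FPKM, Gbp9 8.15 and 18.97 FPKM and Gbp3 6.79 and 14.8 FPKM, Iigp1 4.36 and 14.1 FPKM and Tgtp1 7.53 and 30.2 FPKM, and close copies in these families can share reads. The genes of class I presentation were closer to equal. H2-K1 and B2m had 511 against 557 and 2087 against 2058 FPKM, and the peptide supply genes Tap1, Tap2, Psmb8 and Psmb9 had 78.9 against 62.6, 74.9 against 53.6, 289 against 209 and 84.5 against 58.6 FPKM. Ifng, given above, was higher in the same library.

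**Figure D5:**
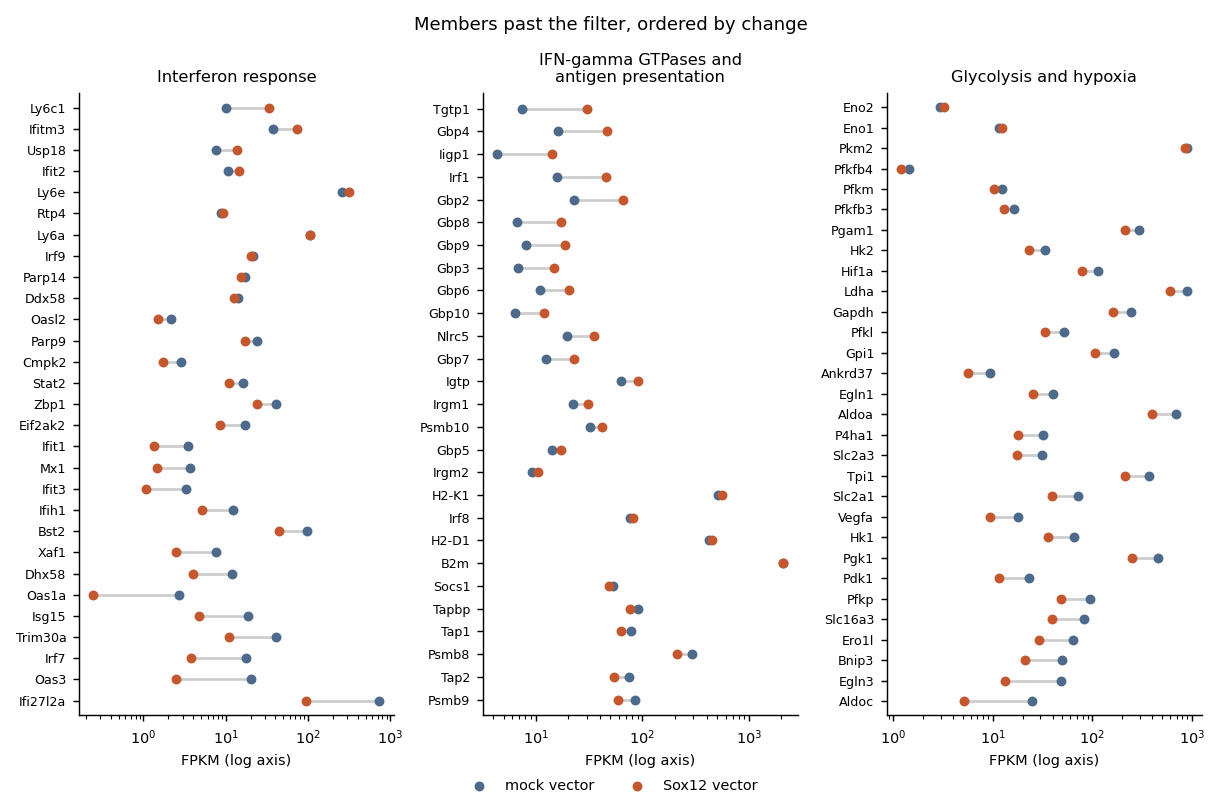
FPKM on a log axis with the mock vector (blue) and the Sox12 vector (orange) for members past the filter of 3 lists, each ordered by change, with the genes that are not reported left undrawn. Most antiviral genes lie to the left of their mock vector value, most guanylate-binding proteins to the right, and 28 of 30 glycolysis and hypoxia genes to the left.

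Glycolysis and hypoxia genes were lower in 28 of 30 cases past the filter and past the size rule in 5. Their median was -0.71, and the other 2, Eno1 and Eno2, were each higher by 0.10. Glycolysis turns glucose into pyruvate and feeds activated T cells. At its entry, the glucose transporters Slc2a1 and Slc2a3 had 71.1 against 39.7 and 31.0 against 17.3 FPKM, and the hexokinases Hk1 and Hk2 65.0 against 35.4 and 33.5 against 23.3 FPKM. Along the pathway Aldoa had 685 and 399 FPKM, Tpi1 372 and 211 FPKM, Pgk1 457 and 248 FPKM and Ldha, which makes lactate, 897 and 602 FPKM. The lactate exporter Slc16a3 was at least 2 times lower at 81.7 and 38.9 FPKM. Targets of hypoxia-inducible factor were also lower, Egln3 as given above, Bnip3 at 49.3 and 21.0 FPKM, Ero1l at 64.2 and 28.8 FPKM, Pdk1 at 22.9 and 11.5 FPKM and Vegfa at 17.7 and 9.37 FPKM. Hif1a itself had 113 and 79.3 FPKM. Gapdh and Eno1 have many processed copies in the genome, so their levels are uncertain.

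Other supply pathways were lower by less. Of 24 genes of amino acid supply and ATF4 targets 23 were lower, with a median of -0.43. Pck2 was at least 2 times lower at 17.9 and 7.54 FPKM, Asns, the asparagine synthetase, had 98.2 and 55.9 FPKM and Atf4 266 and 203 FPKM. All 30 cytoplasmic ribosomal protein genes in the list were lower, with a median of -0.34 and a range of -0.57 to -0.13. The ribosomal stalk gene Rplp1 had 3230.3 and 2242 FPKM. Many ribosomal protein genes have near-identical processed copies. Cholesterol and fatty acid genes had a median of -0.18, with 22 of 27 lower, and the fatty acid elongase Elovl6 was the 1 member past the size rule, at 12.6 and 33.1 FPKM. Oxidative phosphorylation genes had a median of -0.07, within 0.36 of 0 in all 24 cases. The unfolded protein response list had a median of -0.05, with its factor Xbp1 at 145 and 81.2 FPKM. In the heat shock list (median -0.09) Hspa1a and Hspa1b, which are near-identical, had 3.82 against 1.39 and 3.80 against 1.36 FPKM.

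Genes of DNA replication and mitosis were close to equal. Of 27 proliferation genes 12 were higher and 15 lower, none by 2 times, with a median of -0.01 and a range of -0.42 to 0.25. Pcna, Top2a and Hmgb2 had 352 against 349, 192 against 224 and 191 against 188 FPKM. Of 14 genes of cell cycle entry and inhibition of cyclin-dependent kinases past the filter 10 were higher, with a median of 0.29. The 3 at least 2 times higher were all inhibitors. Cdkn2a and Cdkn2b, which block CDK4 and CDK6, had 5.49 against 19.9 and 3.17 against 13.0 FPKM, and Cdkn1c is given above. Other inhibitors differed less, with Cdkn1a (p21) at 138 and 119 FPKM and Cdkn1b at 25.1 and 39.2 FPKM. Cdkn2c and Cdkn2d had 23.4 against 18.8 and 25.9 against 20.8 FPKM. Cdk4 itself had 174 and 324 FPKM. Cdkn1c, Cdkn2a and Cdkn2b were thus higher beside near-equal levels of the replication genes.

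In the list of p53 targets and the BCL2 family, 5 of 23 genes were at least 2 times higher and none as much lower, with a median of 0.25. They included Bmf (0.650 and 7.07 FPKM), Bcl2l11 (Bim, 10.2 and 31.7 FPKM) and Pmaip1 (Noxa, 7.90 and 18.3 FPKM), all BH3-only proteins that promote cell death. The others were Trp53inp1 at 12.9 and 45.2 FPKM and Sesn1 at 8.44 and 25.1 FPKM. Bbc3 (Puma), of the same BH3-only class, had 7.15 and 9.87 FPKM. The protective genes Bcl2, Mcl1 and Bcl2l1 had 42.4 against 50.5, 77.0 against 107 and 91.8 against 77.4 FPKM. The targets Mdm2, Ccng1 and Phlda3 had 42.2 against 41.2, 84.4 against 98.4 and 9.45 against 10.04 FPKM, close to equal with both vectors. Perp, also induced by p53, is not in the list and was at least 2 times lower (31.6 and 8.49 FPKM).

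Most markers of the remaining cell types were low, with exceptions. Of 13 B and plasma cell markers 4 passed the filter, Prdm1 and Xbp1 as given above, Cd79b at 1.48 and 1.43 FPKM and Ebf1 at 1.81 and 0.749 FPKM, while Ms4a1, Cd79a and Pax5 were at or below 0.63 FPKM in both libraries. Of macrophages and dendritic cells 14 of 16 markers were below 1 FPKM in both libraries, with Csf1r at 0 and Lyz2 at 0.0254 and 0.0242 FPKM. Of neutrophils, mast cells and basophils, S100a8 and S100a9 were listed at 0 and 13 of 14 markers were below 1 FPKM in both libraries. The exception was Kit, the receptor of stem cell factor, at 0.890 and 11.6 FPKM (counting interval of the ratio 11.3 to 15.1), without Cpa3 (0.451 and 0.116 FPKM) or Ms4a2 (listed at 0). In the erythroid and platelet list summed FPKM were 75.7 with the mock vector and 21.6 with the Sox12 vector, nearly all from globins, and Alas2 had 0.163 and 0.191 FPKM. Of stromal and endothelial markers, Pecam1, which T cells also express, had 12.2 and 44.0 FPKM. Acta2, the smooth muscle actin, had 20.6 and 20.8 FPKM and the matrix gene Lum 1.35 and 1.27 FPKM, while Cdh5, Kdr and Tek were at or below 0.038 FPKM. The lists of B cells, macrophages, granulocytes, erythroid cells and stroma had only 4, 2, 1, 3 and 3 markers past the filter. Of these, Kit and Pecam1 were at least 2 times higher. Of the NK and CD8 T cell markers 10 of 15 past the filter were, as given above, and 4.85% over all genes. Kit, and of the NK and CD8 T cell markers Klrb1c and Cd8a, passed the filter only through the Sox12 vector library. The lists are too short to compare cell types by these counts.

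The other experiment of the series, splenic Treg of Balb/c mice with a Foxp3-hCD2 reporter, untreated or given 3% DSS water for 7 days, was read in the same way for comparison, and no library is shared. Sox12 there had 0.715 and 1.52 FPKM, far below the level from the vector. Of the 525 higher genes 337 also passed the filter in that table, and of these 3 were at least 2 times higher with DSS and 1 lower. Over all 9958 genes past both filters, 9 (0.0904%) were at least 2 times higher with DSS and 5 (0.0502%) lower. Of the 207 lower genes 124 passed it, and 2 were at least 2 times lower with DSS. Genes past the size rule in the same direction in both tables were Ccl3, Mt2, Gsta4, Lst1 and the predicted gene Gm12238, and Ctsw lay in opposite directions. Over list members past both filters, the interferon response list had medians of -0.73 with the vectors and -0.45 with DSS (28 of 29 lower with DSS). The interferon-gamma list had medians of 0.45 and -0.32 (27 of 27 lower with DSS), so its direction differed between the experiments. For glycolysis and hypoxia the medians were -0.65 and 0.10, and for proliferation -0.01 and 0.24. The difference between the experiments was not tested.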

How the data were processed

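Per the labels' protocols, the PureLink RNA Mini kit gave total RNA and the SureSelect Strand Specific kit the libraries. Cufflinks and the mouse build mm9 are named in the submitters' processing notes, without versions. The sources used here name no aligner, annotation or use of strand. The deposited table holds log2(FPKM + 1) per gene, made by the authors from FPKM of each library, and their log2 fold change, which equals the difference of the columns to within 5e-10. The log2 scale was read from the values, which return FPKM of 6 significant digits when reversed. FPKM divides fragments by transcript length and library size, so each value is relative to the rest of its library. Of 23284 rows, 25 with names turned into dates were left out.

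Values were turned back to FPKM, and changes, lists, counts and promoter matches were computed with Python 3.11.15, pandas 2.3.3 and scipy 1.17.1, checked on simulated data. Promoter windows came from a RefSeq table of build GRCm38.p6, matched by symbol. Named genes are Sox12, Foxp3 and the SoxC group, the 25 per direction farthest apart among genes averaging 5 FPKM or more (small RNAs, predicted loci and receptor segments left out), and per list the members past the size rule, or else the 3 with the highest mean. Others were picked once their values were known. The members and lists were chosen with earlier results of these data known. A few genes are not reported here. No test was run. Alternatives were pseudocounts of 0.1 and 5, no filter or an average of 5 FPKM or more, 3 other scalings, and leaving out small RNAs and predicted loci.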

Additional observations from a re-analysis of the deposited data

How the results depend on the processing

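The numbers of genes at least 2 times higher and lower (525 and 207) were 682 and 335 with a pseudocount of 0.1, 222 and 94 with a pseudocount of 5, and 322 and 139 among genes averaging 5 FPKM or more. Under the other alternatives they lay between 481 and 573 higher and between 159 and 218 lower. Without the filter, which lets in genes near 0, list medians turned positive for B and plasma cell markers (0.070), chemokine receptors and integrins (0.025), Hippo (0.040) and Notch (0.013). Over all alternatives 239 list medians moved little, 41 moved more and these 4 changed sign. No paired analysis was possible because each vector has 1 library and the labels carry no replicate numbers. With 1 library per vector the spread between cultures is unknown, and counting intervals do not cover it. Below 1 FPKM the number of fragments depends on level and transcript length. With the mock vector Tmem98 rested on about 5 fragments and Fn1, at 0.553 FPKM, on about 184.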

Other observations

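Further genes, chosen after their values were seen, are given as values. MHC class II genes ranged widely in level, and some were lower with the Sox12 vector. H2-Ab1, a chain of the class II molecule I-A, had 21.6 and 6.79 FPKM, while its partner chain H2-Aa had 1.93 and 2.24 FPKM. Of the genes that load peptide onto class II, H2-DMa had 25.6 and 10.1 FPKM and the protease Ctss, which trims the invariant chain, 91.9 and 37.7 FPKM. Cd74, the invariant chain itself, had 37.7 and 27.5 FPKM, and Ciita, the factor that switches on class II genes, 0.0798 and 0.199 FPKM. Relatives of Ikzf3 in the Ikaros family were higher by less, with Ikzf1 at 85.0 and 97.1 FPKM, Ikzf2 at 12.0 and 18.7 FPKM and Ikzf5 at 10.7 and 13.5 FPKM. The Gimap GTPases, which support lymphocyte survival, were each higher by less than 2 times on the log2(FPKM + 1) scale, with Gimap4 at 209 and 417 FPKM and Gimap6 at 75.9 and 145 FPKM. Schlafen genes went the other way, with Slfn2 at 140.1 and 68.1 FPKM.

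Of the tubulins that most dividing cells use, Tubb5 was at 767 and 947 FPKM, Tubb4b at 188 and 168 FPKM and Tuba1b at 628 and 659.7 FPKM. Milk protein genes, which STAT5 drives in the mammary gland, included Csn2 at 38.2 and 147 FPKM and Csn1s1 at 3.36 and 21.4 FPKM, beside Csn3 at 0.0155 and 0 FPKM. Penk, which encodes enkephalin, had 702 and 285 FPKM. Ldhb, the lactate dehydrogenase chain that favours pyruvate, had 14.2 and 80.3 FPKM, the reverse of Ldha. Cd1d1 and Cd1d2, lipid-presenting molecules with close sequences, had 1.38 against 12.7 and 0.427 against 4.39 FPKM. Of genes that thymocytes express, Rag1, Rag2 and Ptcra were listed at 0 in both libraries, Dntt had 0.186 and 0.122 FPKM, Ccr9 0.00526 and 0.637 FPKM and Cd8a 0.580 and 5.58 FPKM. The microRNA row Mir1905 had 111 and 8094 FPKM, the largest value of a small RNA row in the Sox12 vector library, and its length is below that of a library fragment.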
